A study of Mus musculus with 9 samples.

Results

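The interferon-inducible GTPases are GTP-binding proteins that cells make in larger amounts after an interferon signal. Here 10 of them were followed by symbol: Gbp2, Gbp3, Gbp5, Gbp7, Irgm1, Irgm2, Igtp, Iigp1, Mx1 and Mx2. All 10 were present among the 55401 genes of the deposited table, and all 10 were above 0 in at least 1 of its 9 columns. Expression was given as TPM, a gene's length-corrected share of the RNA in a sample scaled to a fixed total, so levels of different genes can be set side by side. RAW264.7, a macrophage line from a tumor that Abelson murine leukemia virus induced in a male mouse, was treated in 3 groups of 3 columns each, numbered 5, 6 and 7. The groups were DMSO (the vehicle), LPS (DMSO+LPS in the labels, LPS being a bacterial outer membrane lipid) and LPS + Ska (LPS with skatole, an indole compound). All groups were wild type by label and came from the same line, and no group received skatole without LPS. The labels and the study's results give 24 h of treatment, whereas its methods give another time.

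In the LPS and LPS + Ska groups, replicate 5 equaled the mean of replicates 6 and 7 for 17950 of 17950 and 17658 of 17658 genes with both above 0 (tolerance 1e-05 TPM), against 10 of 15721 genes in DMSO. These groups hold at most 2 independent values per gene, so their spread and their n of 3 columns are not those of 3 separate samples. The labels do not say whether the replicates came from separate cultures, so p-values measure only the spread between these columns, which may be technical. TPM keeps no read depth, and the depth behind each value is unknown. All 9 macrophage markers on a fixed list were expressed, and their summed level was 12430 to 13400 TPM in DMSO, 7375 to 7773 TPM in LPS and 13690 to 13950 TPM in LPS + Ska, mostly from Lyz2. Every T cell, NK cell, B cell, fibroblast and epithelial marker was under 1 TPM in every column, and 3 of 4 neutrophil markers were at 0. The part of the macrophage marker shift in the results was not tested. In bulk RNA, fewer cells expressing a gene and less RNA per cell cannot be told apart.

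LPS is sensed by Toll-like receptor 4, which among other outputs induces interferon beta. Interferon beta then acts on its receptor IFNAR, and a complex that includes IRF9 binds the interferon-stimulated response element (ISRE). Interferon gamma acts on genes that carry the gamma-activated site (GAS). The guanylate-binding proteins (Gbp) assemble on pathogen vacuoles and on bacteria in the cytosol, and several promote inflammasome activation. The immunity-related GTPases (IRG) are divided into effectors such as Iigp1, which coat and break vacuoles, and the regulators Irgm1, Irgm2 and Igtp (also called Irgm3), which sit on the cell's own membranes. The Mx proteins are dynamin-like GTPases that block virus replication.

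Of the 10 genes, 5 had a mean of at least 1 TPM over the 9 columns and were tested: Irgm1, Irgm2, Igtp, Gbp7 and Mx2. All 5 rose with LPS, and all 5 had less RNA with skatole added to LPS, yet still more than with DMSO. A gene was called when its fold change passed 1.5 upward or 0.67 downward and its adjusted p was under 0.05, where p came from limma with Benjamini-Hochberg adjustment over 12819 genes. By this rule, 5 of 5 were called higher in LPS than in DMSO, where 12.7% of all tested genes were called higher, 20.0% lower and 32.7% in either direction. In LPS + Ska compared with LPS, 5 of 5 were called lower, where 6.14% of all tested genes were called lower, 3.35% higher and 9.49% in either direction. In LPS + Ska compared with DMSO, 5 of 5 were called higher, where 11.4% of all tested genes were called higher, 25.3% lower and 36.7% in either direction. A gene that passes the filter mainly through its LPS columns had to differ from DMSO, and is also more likely to be lower in LPS + Ska than in LPS. Gbp7 and Mx2 passed in this way, with means of 0.073 and 0.16 TPM in DMSO and 7.41 and 21.2 TPM in LPS. These counts therefore describe the 5 tested genes and not the 10, and are not a test of the group. Summed over the 10 genes, expression was 13.7 to 16.1 TPM in the DMSO columns, 130 to 136 TPM in the LPS columns and 50.1 to 52.6 TPM in the LPS + Ska columns.

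**Figure D1:**
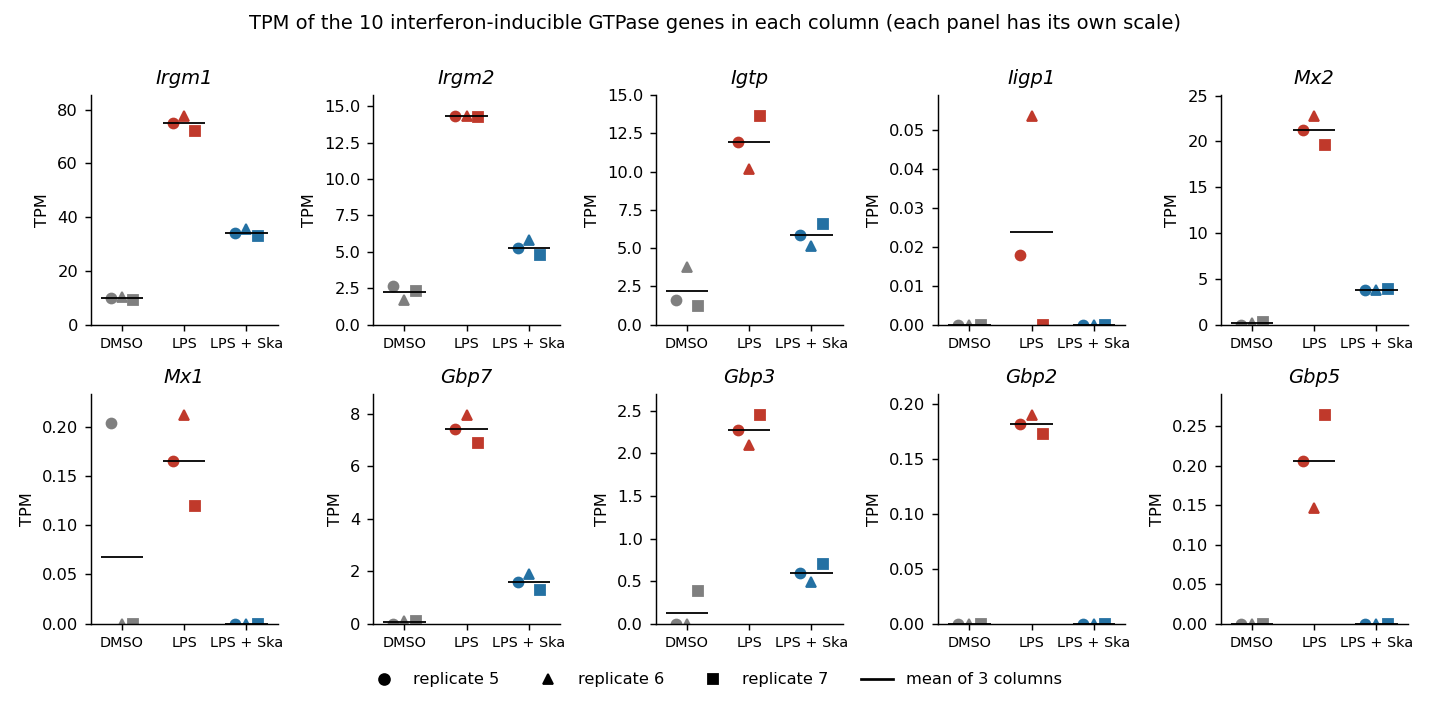
TPM of the 10 interferon-inducible GTPases in each column of DMSO, LPS and LPS + Ska, with points for the columns and lines for the group means. For the 5 tested genes (Irgm1, Irgm2, Igtp, Gbp7, Mx2) the LPS columns lie highest, the LPS + Ska columns between, and the DMSO columns lowest, while Gbp2, Gbp5, Iigp1 and Mx1 stay under 0.3 TPM.

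The IRG regulators were the only members with a mean above 1 TPM in DMSO. Irgm1, which protects host membranes from attack by the effector GTPases and takes part in autophagy, had the highest level of all 10 genes in every group. It was at 9.93, 10.4 and 9.27 TPM in DMSO replicates 5, 6 and 7, at 74.9, 77.7 and 72.2 TPM in LPS, and at 34.2, 35.5 and 32.9 TPM in LPS + Ska. The groups did not overlap. On the log2(TPM + 1) scale used for all fold changes, Irgm1 rose by 2.81 (SE 0.07, adjusted p = 7e-09 in limma) with LPS. It fell by 1.11 (adjusted p = 1.6e-05) from LPS to LPS + Ska, and remained 1.70 above DMSO (adjusted p = 1.6e-07). As TPM means, LPS + Ska held 37.4% of the gain over DMSO that LPS gave.

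Irgm2, a regulator placed on the Golgi and other membranes, was at 2.63, 1.67 and 2.33 TPM in DMSO, at 14.3, 14.3 and 14.3 TPM in LPS and at 5.29, 5.79 and 4.79 TPM in LPS + Ska. Its LPS columns were nearly equal, its DMSO columns were more scattered, and the groups did not overlap. The log2 fold change was 2.26 (SE 0.13, adjusted p = 9.8e-07 in limma) for LPS compared with DMSO and -1.29 (adjusted p = 2.2e-04) for LPS + Ska compared with LPS. The difference left from DMSO was 0.98 (adjusted p = 1.4e-04), with 25.4% of the TPM gain left.

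Igtp, a regulator found on the endoplasmic reticulum and lipid droplets, was at 1.64, 3.79 and 1.24 TPM in DMSO, at 11.9, 10.2 and 13.6 TPM in LPS and at 5.83, 5.11 and 6.56 TPM in LPS + Ska. DMSO replicate 6 stood above the other DMSO columns, but no group overlapped another. Igtp rose by 2.07 (SE 0.25, adjusted p = 9.9e-05 in limma) with LPS and was 1.16 above DMSO in LPS + Ska (adjusted p = 0.0029). Its fall of 0.92 from LPS to LPS + Ska had an adjusted p of 0.025, the weakest call among the tested members. This call was lost when each tied group was replaced by 2 values rebuilt around replicate 5 (log2 fold change -0.92, adjusted p = 0.084). It was also lost without LPS replicate 5 or 7 (adjusted p = 0.078 and 0.084) and without LPS + Ska replicate 5 or 6 (0.074 and 0.054). Over all 18 alternatives in which it was tested, its log2 fold change stayed between -1.02 and -0.82.

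Igtp and Irgm2 are also the pair of members that share the most sequence with each other. In the GENCODE annotation of the mm10 build they start next to each other on the plus strand of chromosome 11. Igtp lies at chr11:58199556-58207591 and Irgm2 at chr11:58199618-58222782, and these spans share 7974 bp. The RefSeq start of Irgm2 lies downstream of the end of Igtp, so the overlap depends on the annotation. Of the 50-base stretches of Igtp transcripts, 11.8% also occur in Irgm2 transcripts, and 6.79% of those of Irgm2 occur in Igtp. The strand setting of the counting is not given in the sources used here, but the overlap lies on the same strand. The values of this pair are uncertain to that extent, since the counting could divide reads between them. Irgm1 lies 9.33 Mb away on the minus strand at chr11:48861968-48871683, and 0.379% of its stretches occur in another gene.

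The effector Iigp1 was the IRG member with almost no RNA. It was listed at 0 in all DMSO and LPS + Ska columns and at 0.018, 0.054 and 0 TPM in LPS. The LPS and DMSO columns overlapped, and without the filter at 1 TPM the log2(TPM + 1) difference of 0.034 was not called (adjusted p = 0.21 in limma). Iigp1 lies on chromosome 18 (chr18:60376027-60392634), apart from the other members.

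Among the guanylate-binding proteins, Gbp7 was the highest. It was at 0, 0.10 and 0.11 TPM in DMSO, at 7.41, 7.94 and 6.88 TPM in LPS and at 1.58, 1.88 and 1.27 TPM in LPS + Ska. No columns of different groups overlapped, and the DMSO columns were at or close to 0. Gbp7 rose by 2.97 (SE 0.14, adjusted p = 3.7e-07 in limma) with LPS, fell by 1.71 (adjusted p = 8.6e-05) from LPS to LPS + Ska, and was 1.26 above DMSO (adjusted p = 5.4e-05). The TPM gain left in LPS + Ska was 20.5%. With DMSO near 0 the sizes depend on the pseudocount: with 0.1 in place of 1, Gbp7 rose by 5.52 with LPS and by 3.34 in LPS + Ska compared with DMSO.

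Gbp3 missed the filter by a small margin, with a mean of 0.998 TPM over the 9 columns. It was at 0, 0 and 0.38 TPM in DMSO, at 2.27, 2.09 and 2.45 TPM in LPS and at 0.59, 0.49 and 0.70 TPM in LPS + Ska. The order of the groups was that of Gbp7, with no overlap. When the filter was removed, which left 25181 genes, Gbp3 was called in 2 comparisons, with log2 fold changes of 1.55 (adjusted p = 1.3e-04 in limma) for LPS compared with DMSO and -1.04 (adjusted p = 0.0022) for LPS + Ska compared with LPS. The difference of 0.52 between LPS + Ska and DMSO (adjusted p = 0.021) lay inside the fold change limit. In that fit, 7.23% of genes were called higher in LPS compared with DMSO and 3.59% lower in LPS + Ska compared with LPS.

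Gbp2 and Gbp5, which in macrophages act on bacteria and promote inflammasome activation, were close to undetected. Gbp2 was at 0.181, 0.189 and 0.172 TPM in LPS, and Gbp5 at 0.206, 0.147 and 0.264 TPM. Both were listed at 0 in every DMSO and LPS + Ska column, so each was seen in LPS columns alone. Both were under the filter. Without it, the log2(TPM + 1) difference was 0.24 for Gbp2 (adjusted p = 3.9e-06 in limma) and 0.27 for Gbp5 (adjusted p = 5.8e-04) in LPS compared with DMSO. The values for LPS + Ska compared with LPS were -0.24 (adjusted p = 5.5e-06) and -0.27 (adjusted p = 0.0014), and all of these lay inside the fold change limit. The columns at 0 add no spread and the LPS columns are tied. These p-values therefore do not measure variation between separate samples.

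The 4 Gbp members lie on the plus strand of chromosome 3 within 144.0 kb, in the order Gbp5 (chr3:142493978-142522344), Gbp7 (chr3:142530342-142550149), Gbp3 (chr3:142560026-142573209) and Gbp2 (chr3:142620602-142638008). Gbp2b, a related gene between Gbp3 and Gbp2, had group means of 0.038, 0.385 and 0.245 TPM in DMSO, LPS and LPS + Ska. The neighbors in this cluster thus differed widely in LPS, from Gbp7 with a mean of 7.41 TPM to Gbp2 with 0.181 TPM. Of Gbp7's 50-base stretches, 12.7% occur in another gene, the largest share among the members. Gm43802, which overlaps it on the same strand, holds 10.5% and Gbp3 2.25%. The values of Gbp7 are uncertain to that extent. For Gbp3, 3.75% occur in Gbp7.

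Mx2, a cytoplasmic antiviral GTPase that the GENCODE annotation classes as a polymorphic pseudogene, had the largest change. It was at 0, 0.16 and 0.33 TPM in DMSO, at 21.2, 22.8 and 19.6 TPM in LPS and at 3.83, 3.78 and 3.88 TPM in LPS + Ska. The groups were far apart and did not overlap. Mx2 rose by 4.26 (SE 0.13, adjusted p = 2.6e-08 in limma) with LPS, fell by 2.20 (adjusted p = 1.5e-05) from LPS to LPS + Ska, and was 2.06 above DMSO (adjusted p = 1.6e-06). The TPM gain left was 17.4%, the smallest of the tested members. With a pseudocount of 0.1 the rise with LPS was 6.58 and the difference of LPS + Ska from DMSO 4.14.

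Mx1, the nuclear antiviral GTPase, was near 0 in every group. It was at 0.20, 0 and 0 TPM in DMSO, at 0.17, 0.21 and 0.12 TPM in LPS, and listed at 0 in LPS + Ska. Its LPS and DMSO columns overlapped. Without the filter it was not called in any comparison, with a log2(TPM + 1) difference of 0.13 (adjusted p = 0.21 in limma) for LPS compared with DMSO and -0.22 (adjusted p = 0.081) for LPS + Ska compared with LPS. Mx1 (chr16:97447035-97462907, minus strand) and Mx2 (chr16:97535308-97560900, plus strand) lie 72.4 kb apart on chromosome 16, and 4.38% of Mx2's 50-base stretches occur in Mx1.

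Counting members whose columns did not overlap, 8 of 10 were higher in LPS than in DMSO, 9 of 10 fell below LPS in LPS + Ska, and 6 of 10 were higher in LPS + Ska than in DMSO. The exceptions in LPS compared with DMSO were Iigp1 and Mx1, and Iigp1 was also the exception in LPS + Ska compared with LPS. In LPS + Ska compared with DMSO the exceptions were Gbp2, Gbp5, Iigp1 and Mx1. Replicate 5 of the members never lay outside replicates 6 and 7 in LPS or LPS + Ska, so it adds nothing to these counts there. Gbp2, Gbp5 and Mx1 count as falling with LPS columns at 0.12 to 0.26 TPM beside listed values of 0. For these genes the count reflects detection near the floor. Among the 25181 genes above 0 in any column, 22.2%, 25.3% and 17.5% had columns that did not overlap in these directions.

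The level of all genes shifted slightly between groups. The median log2 fold change over all tested genes was -0.07, -0.10 and -0.18 for LPS compared with DMSO, LPS + Ska compared with LPS and LPS + Ska compared with DMSO, beside 2.81, -1.29 and 1.26 for the 5 tested members. Scaling by median ratios moved the all-gene medians to between -0.01 and 0.01. The higher share of all calls went from 35.3% to 52.0% in LPS + Ska compared with LPS and from 31.0% to 48.4% in LPS + Ska compared with DMSO. The 5 members kept their direction and their calls under this scaling.

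**Figure D2:**
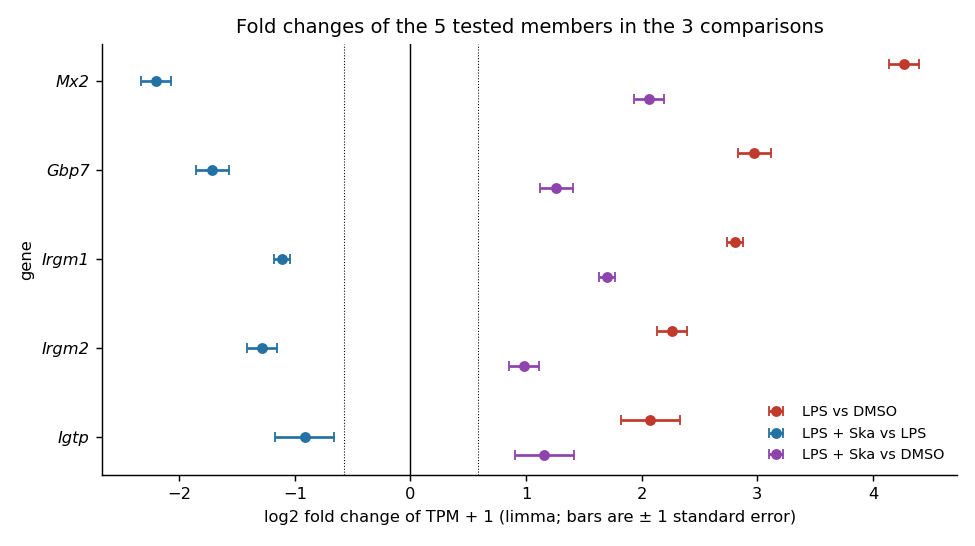
Log2 fold change on the log2(TPM + 1) scale of the 5 tested members in the 3 comparisons, with bars for the standard error from limma and dashed lines at the fold change limits. Mx2 shows the largest values (4.26, -2.20 and 2.06), and every point lies beyond the limit of its comparison.

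The promoters of the members are shown because the tested members moved together and because members near 0 can be set beside them. RefSeq windows on GRCm38.p6, the assembly of mm10, from 250 bases before to 50 after the start were matched for 7 members, with 8 windows since Gbp3 has 2. No window was found for Mx2, Mx1 or Iigp1, so the tested member with the largest change is not covered. The 170 bases before the start are printed 5′ to 3′ on the gene's strand. Capitals mark matches to the ISRE core (GAAANN followed by GAAA, or on the other strand TTTCNN followed by TTTC) and to GAS (TTCNNNGAA, which is its own reverse complement).
Irgm1, chr11:48871421-48871590, minus strand: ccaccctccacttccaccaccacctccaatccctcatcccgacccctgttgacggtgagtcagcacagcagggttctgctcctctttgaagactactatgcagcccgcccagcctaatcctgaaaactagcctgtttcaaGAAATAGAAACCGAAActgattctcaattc
Irgm2, chr11:58214807-58214976, plus strand: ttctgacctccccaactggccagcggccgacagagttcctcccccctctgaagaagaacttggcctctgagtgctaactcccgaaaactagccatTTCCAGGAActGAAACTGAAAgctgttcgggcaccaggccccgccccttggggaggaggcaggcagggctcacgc
Igtp, chr11:58199386-58199555, plus strand: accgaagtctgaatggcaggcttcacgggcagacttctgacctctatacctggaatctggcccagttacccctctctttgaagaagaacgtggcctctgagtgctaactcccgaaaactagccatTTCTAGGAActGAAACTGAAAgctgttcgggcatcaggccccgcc
Gbp7, chr3:142530166-142530335, plus strand: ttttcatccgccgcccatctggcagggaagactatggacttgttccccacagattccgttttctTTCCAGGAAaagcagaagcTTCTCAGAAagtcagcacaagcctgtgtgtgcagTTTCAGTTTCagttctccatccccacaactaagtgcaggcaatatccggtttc
Gbp3, chr3:142559874-142560043, plus strand: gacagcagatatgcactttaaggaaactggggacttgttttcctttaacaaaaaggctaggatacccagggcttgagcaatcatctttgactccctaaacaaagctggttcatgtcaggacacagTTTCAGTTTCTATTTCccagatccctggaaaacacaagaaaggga
Gbp5, chr3:142496764-142496933, plus strand: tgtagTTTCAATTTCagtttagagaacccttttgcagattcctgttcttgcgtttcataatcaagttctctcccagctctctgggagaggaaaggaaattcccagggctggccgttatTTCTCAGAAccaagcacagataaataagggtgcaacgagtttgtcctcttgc
Gbp2, chr3:142620493-142620662, plus strand: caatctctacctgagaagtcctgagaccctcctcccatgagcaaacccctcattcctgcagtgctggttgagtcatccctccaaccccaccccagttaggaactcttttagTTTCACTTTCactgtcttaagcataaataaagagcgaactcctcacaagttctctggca

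An ISRE core was found in the first window of all 7 matched members, whereas 3.44% of the 32851 promoters in the same table hold one. Counted in bases from the start, its first base lay at -30 and -24 in Irgm1 and at -45 and -39 in Gbp3, as overlapping matches in each. It lay at -64 in Irgm2, -34 in Igtp, -53 in Gbp7, -165 in Gbp5 and -59 in Gbp2. The second window of Gbp3 held none. Gbp2 and Gbp5, with 0.26 TPM at most, thus also held a match to the ISRE core. The letters at its free positions differed from those of Irgm2, Igtp and Gbp7 in these genes, and also in Irgm1, the highest member.

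GAS was found in 4 of the 7 members, compared with 8.30% of all promoters. Gbp7 had matches at -106 and -87, and Gbp5 at -245 and -52, the first of which lies outside the printed bases. Igtp and Irgm2 each had 1, at -45 and -75, followed after the same short gap by the ISRE core. Over their whole windows, Igtp and Irgm2 were identical at 247 of 336 aligned columns (73.5%), compared with 49.4% to 52.2% for 4 other pairs of members aligned. The RefSeq start of Irgm2 used here lies inside the GENCODE gene, downstream of the end of Igtp. The printed bases of Irgm1 and Gbp5 also lie wholly inside the GENCODE genes, and those of Gbp2 and Gbp3 in part. The NF-kB motif (GGGNN followed by TTTCC) was found on either strand in 1 member, Gbp5, at -77, compared with 1.63% of all promoters. A match describes letters only and is not evidence of binding in these cells.

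**Figure D3:**
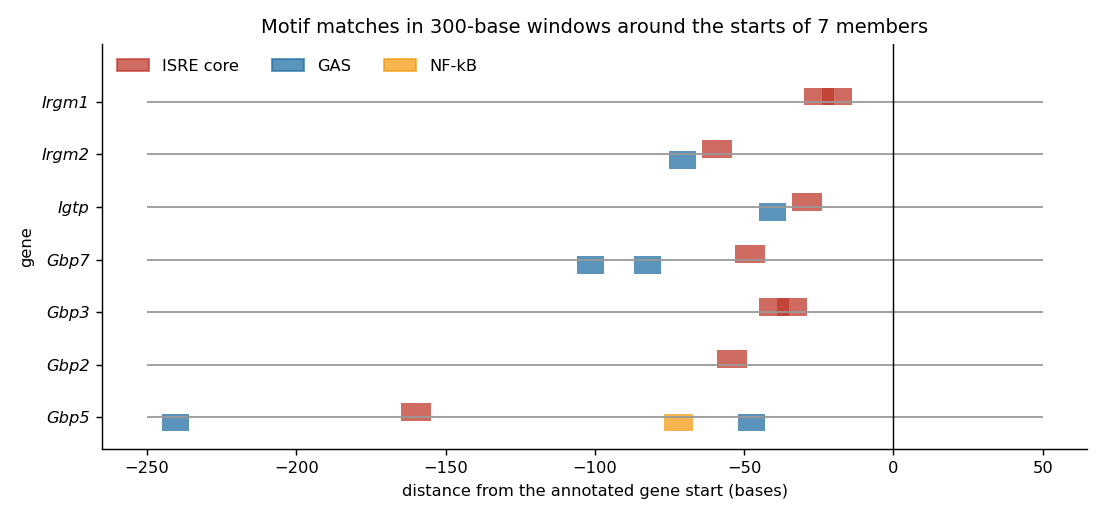
Positions of ISRE core, GAS and NF-kB motif matches in the promoter windows of the 7 matched members, in bases from the start. Each of the 7 has an ISRE core, 4 have a GAS match and Gbp5 alone has the NF-kB motif.

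The other IRG, GBP and very large GTPase (GVIN) genes were taken from a list of 29 names. Of these names 19 were found, of which 11 were under 1 TPM in every column and 5 were tested. With LPS, 2 of the 5 rose and 2 fell, where 12.7% of all tested genes were called higher and 20.0% lower. Between LPS + Ska and LPS, 3 fell and none rose, where 6.14% of all tested genes were called lower and 3.35% higher. Gvin1, a very large interferon-inducible GTPase, followed the members with means of 1.88, 8.82 and 4.33 TPM in DMSO, LPS and LPS + Ska (log2 fold change 1.77 with LPS, then -0.90, adjusted p = 0.0029 in limma). Ifi47, an IRG effector also called IRG-47, rose by 0.97 with LPS, at means of 5.31 and 11.3 TPM. In LPS + Ska it was at 13.5, 12.4 and 14.5 TPM, compared with 11.3, 12.4 and 10.1 TPM in LPS, a log2 difference of 0.24 that was not called (adjusted p = 0.22). Whether Ifi47 differed from the members was not tested. 9930111J21Rik1, which lies near Irgm1 on chromosome 11, and 9930111J21Rik2 fell by 0.94 and 0.69 with LPS and by a further 0.60 and 0.62 in LPS + Ska (adjusted p = 0.013 and 0.024).

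The constitutive large GTPases, which divide or fuse membranes without an interferon signal, had 8 tested of 10 genes. None was called in LPS compared with DMSO or in LPS + Ska compared with LPS, where 32.7% and 9.49% of all tested genes were called. Some changed inside the fold change limits with adjusted p under 0.05 in limma. With LPS these were Dnm2 (-0.51, adjusted p = 8.3e-05), Dnm1l (0.56, 3.4e-04) and Atl2 (0.48, 7e-04). In LPS + Ska compared with LPS they were Dnm2 (-0.39, 0.0018) and Mfn2 (-0.26, 0.040). In LPS + Ska compared with DMSO, the mitochondrial fission GTPase Dnm1l rose by 0.63 and the endocytic Dnm2 fell by 0.90.

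**Figure D4:**
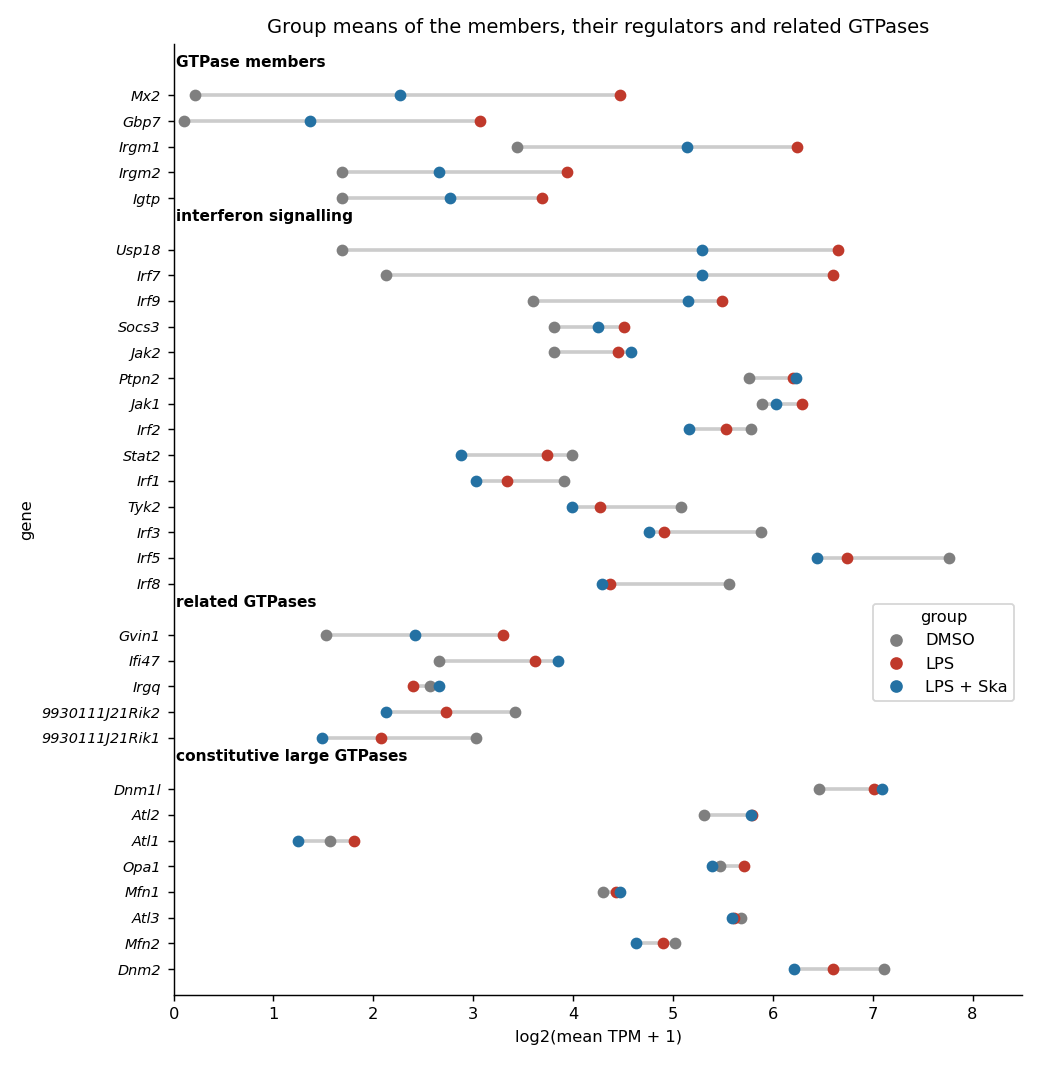
Group means, as log2(mean TPM + 1), of the tested members, the interferon signalling genes, the related GTPases and the constitutive large GTPases, with 1 point per group. The members, Usp18, Irf7, Irf9, Socs3, Jak1 and Gvin1 have the LPS + Ska point between DMSO and LPS, as does Atl2 by a narrow margin. The points of the constitutive GTPases lie close together, Dnm2 and Dnm1l being the widest apart.

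Interferon transcripts themselves were nearly absent at the time sampled. Of 23 ligand and receptor genes, 14 were at 0 in every column and 19 were under 1 TPM in every column. Ifnb1, which encodes interferon beta, was at 0.037, 0.112 and 0 TPM in LPS and listed at 0 elsewhere. The 4 receptor chains were expressed. Ifnar1 and Ifnar2, the chains of the type I receptor, fell by 0.63 and 1.01 with LPS (means of 51.3 and 32.9 TPM, and of 83.5 and 41.0 TPM). Their means in LPS + Ska were 33.8 and 41.3 TPM, and no receptor chain was called between LPS + Ska and LPS.

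Of the interferon signalling genes, 14 of 15 were tested. With LPS, 5 rose and 4 fell, where 12.7% of all tested genes were called higher and 20.0% lower. Usp18, which limits signalling from IFNAR, rose by 5.09 and the transcription factor Irf7 by 4.54. Irf9, which acts on the ISRE, rose by 1.90. Jak2 and Socs3 rose by 0.64 and 0.70, and Irf8, Irf5, Irf3 and Tyk2 fell by 1.20, 1.02, 0.97 and 0.81. In LPS + Ska compared with LPS, 3 fell and none rose, where 6.14% of all tested genes were called lower and 3.35% higher.

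The 3 that fell were Irf7, Usp18 and Stat2, a subunit of the complex that binds the ISRE. Irf7 was at 96.1, 87.4 and 104.8 TPM in LPS and at 38.0, 29.8 and 46.3 TPM in LPS + Ska, above 5.26, 2.29 and 2.51 TPM in DMSO. These groups did not overlap. Irf7 fell by 1.33 (adjusted p = 0.0037 in limma) and Usp18 by 1.36 (adjusted p = 0.010). Stat2 fell by 0.85 (adjusted p = 0.0063), from a mean of 12.4 TPM to 6.38 TPM, below its DMSO mean of 14.9 TPM. Irf9, a DNA-binding subunit of the same complex, was at 44.0 TPM in LPS and 34.5 TPM in LPS + Ska. Its log2 fold change of -0.34 (adjusted p = 0.041) lay inside the fold change limit, so it was not called.

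Genes whose products work with the GTPases formed 3 lists, to be read against the shares of all tested genes called in either direction, 32.7% with LPS and 9.49% in LPS + Ska compared with LPS. The ATG8 conjugation system, which guides IRG and GBP proteins to vacuoles, had 12 tested genes, of which 1 rose and 2 fell with LPS. In LPS + Ska compared with LPS, Atg10 was the 1 gene called (log2 fold change -1.03, adjusted p = 0.0022 in limma). Of 6 prenylation enzymes, which attach lipids to some GBPs, Rce1 fell with LPS and none was called between LPS + Ska and LPS. Of 8 inflammasome genes, 7 were tested, of which 3 rose and 1 fell with LPS. Casp4, the sensor of cytosolic LPS, rose by 1.37 with LPS. Between LPS + Ska and LPS its change of -0.33 (adjusted p = 0.042) lay inside the fold change limit and was not called. In that comparison Il18 and Il1b fell (Il18 by 0.91) and Casp1 rose by 0.59. The adaptor Pycard was at 0.09 TPM or less in every column.

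The 5 tested genes outside the members whose log2 fold changes against DMSO lay nearest to the members' median (2.81 for LPS, 1.26 for LPS + Ska) were Gm49383, Zbp1, Syn1, Dhx58 and Gm43738, at distances of 0.17 to 0.42. Zbp1, a sensor of Z-form nucleic acid, had means of 0.019, 6.92 and 1.12 TPM in DMSO, LPS and LPS + Ska. Dhx58, a cytosolic RNA helicase of the RIG-I family, had means of 3.38, 22.7 and 10.7 TPM. Syn1, a synaptic vesicle protein, had means of 0.610, 7.91 and 3.27 TPM. Of these, Gm43738 was not called between LPS + Ska and LPS (adjusted p = 0.097 in limma), at means of 5.07 and 1.47 TPM. The likeness is a distance over 2 comparisons that share the DMSO columns, and says nothing of function.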

How the data were processed

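RNA from RAW264.7 cells was sequenced by the authors, who deposited TPM for 55401 Ensembl genes in 9 columns; column sums were 999895 to 1000145 TPM. The submitters' processing notes name fastp 0.20.1, HISAT2 2.2.1, StringTie 2.0 and mm10; filters and strand settings are not given in the sources used here. TPM removes gene length and depth, so no count test or counting interval was possible, and a rise in abundant genes lowers the others.

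Members were matched by symbol (55141 identifiers had one). limma 3.58.1 in R 4.3.3 (lmFit, eBayes with trend) was run on log2(TPM + 1) of all 9 columns without covariates, for 12819 genes whose mean was 1 TPM or more. It was also run on simulated data with known changes. The simulated columns were independent, so that run cannot show the error rate with tied columns. The 19 alternatives changed the pseudocount, filter, scaling, fit, call rule or columns. "Recovered values" replaced the tied columns of a group by 2 rebuilt values, placed on either side of replicate 5 and closer to it than replicates 6 and 7. They are an assumption about how the columns arose and are not columns of the deposit. For Igtp in LPS they were 11.05 and 12.78 TPM, whereas replicates 6 and 7 were at 10.19 and 13.64 TPM. The members and lists were chosen with earlier results of these data known. Genes named were the members, genes of the lists, and the 5 nearest by Euclidean distance of both fold changes against DMSO. Coordinates came from GENCODE vM21, promoters from RefSeq GRCm38.p6. A gene of the interferon signalling list is not reported here. The planned protein motifs were not analysed here. Figures used matplotlib 3.10.9 in Python 3.11.15.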

Additional observations from a re-analysis of the deposited data

How the results depend on the processing

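Irgm1, Irgm2, Gbp7 and Mx2 kept their direction and their call in every alternative in which they were tested; Gbp7 was under the filter at a mean TPM of at least 5, which left 4 members tested and called in each comparison. Gbp3 passed the filter when genes of ribosomal proteins and of the mitochondrial genome were left out of the scaling. This gave 6 members called in each comparison, and 4244, 1274 and 4689 genes of all those tested. Gbp3 passed mainly through its LPS columns, as Gbp7 and Mx2 did, so the count of 6 is not a test of the group. Without the filter the counts of members were 6, 5 and 5 in LPS vs DMSO, LPS + Ska vs LPS and LPS + Ska vs DMSO. Gbp3 was called in the first 2 and Igtp was not called in the second. Igtp in LPS + Ska vs LPS was also not called with a pseudocount of 0.1 (adjusted p = 0.052 in limma; 0.065 without the filter, 0.084 with recovered values); its adjusted p was 0.0032 to 0.084 over the alternatives. Leaving out 1 column at a time gave 5, 4 to 5 and 5 members called. With adjusted p alone, without the fold change limit, 7734, 3663 and 8116 genes of all those tested were called, as this rule is wider. With the replicate number as a block, 5 members were called in each comparison, and 4235, 1198 and 4729 genes of all those tested. Deviations of same-numbered columns correlated at 0.38, 0.15 and 0.13 between LPS and LPS + Ska, whose columns are tied, and at -0.03 to 0.08 in the other pairs, so shared numbers were not treated as pairs.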
